A study of Mus musculus with 6 samples.

Results

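The AP-1 transcription factors and their relative Atf3 were compared between islets of diabetic and non-diabetic mice. The 8 genes Fos, Fosb, Fosl1, Fosl2, Jun, Junb, Jund and Atf3 were taken by gene symbol out of 44713 genes with RNA-seq counts, and 7 of them passed the filter on low counts, as did 12760 genes in all. The family was selected on the db/db to db/m differences of these same counts, in which Fosb, Fos and Atf3 had been among the genes with the smallest p. Its differences between the groups are therefore given as a description without a test. Islets were isolated with collagenase from 3 db/db and 3 db/m mice, and libraries were made from total RNA after rRNA depletion. Per the labels the db/db mice carried the genotype Lepr-/-, without a working leptin receptor, and the db/m mice were named wild type. The mice were males of 10 weeks on a normal diet, and the db/m mice were littermates of the db/db mice. The labels give the strain as C57BL/6, whereas the methods of the study give the BKS background. Leptin receptor loss acts in the whole body in this model, so that obesity and high blood glucose come with the genotype.

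AP-1 is a dimer of basic leucine zipper (bZIP) proteins. A Fos protein (Fos, Fosb, Fosl1, Fosl2) must pair with a Jun protein (Jun, Junb, Jund) to bind DNA, whereas Jun proteins can also pair with each other or with Atf3. Most of these genes are immediate-early genes, which are transcribed within minutes of a stimulus from factors already present in the cell, and whose mRNAs are short-lived. In islets they are known to respond to glucose, cAMP, calcium and cytokines, and also to the isolation of the tissue itself.

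Compact gene models were shared by the 8 genes in the GRCm38 annotation of RefSeq. All 8 had 4 exons or fewer, against 18.4% of 10882 tested coding genes, whose median was 9 exons. Jun (chr4:95049036-95052222, reverse strand), Junb (chr8:84976909-84978748, reverse strand) and Jund (chr8:70697739-70700616, forward strand) are genes of 1 exon without introns, as are 1.91% of the tested coding genes. Fos (chr12:85473890-85477274, forward strand), Fosb (chr7:19302696-19310118, reverse strand), Fosl1 (chr19:5447698-5455938, forward strand), Fosl2 (chr5:32136472-32157840, forward strand) and Atf3 (chr1:191170296-191183333, reverse strand) each have 4 exons. The pentamer ATTTA in the 3′ UTR is a hallmark of unstable mRNAs. It occurred 4.90 times per kilobase in the 3′ UTR of Fos, 4.12 times in that of Junb and 3.25 times in that of Jun, against a median of 1.35 over 10445 tested genes. Fosb, with 0.466, was the only one of the 8 genes below that median. The longer nonamer TTATTTATT was present in the 3′ UTRs of Fos and Fosl2, and in 8.01% of tested genes.

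The promoters of Fos, Fosb, Atf3 and Jun are printed because these genes had the largest differences between the groups, and that of Fosl2 because it had the smallest. Each runs from 250 bases before to 50 bases after the RefSeq start site, 5′ to 3′ on the strand of the gene (GRCm38.p6). Capitals mark TGACG, the core of the cAMP response element, or its reverse complement, and the TATA box TATAAA, none of which the windows of Jun and Fosl2 hold.
Fos, chr12:85473640-85473939, forward strand: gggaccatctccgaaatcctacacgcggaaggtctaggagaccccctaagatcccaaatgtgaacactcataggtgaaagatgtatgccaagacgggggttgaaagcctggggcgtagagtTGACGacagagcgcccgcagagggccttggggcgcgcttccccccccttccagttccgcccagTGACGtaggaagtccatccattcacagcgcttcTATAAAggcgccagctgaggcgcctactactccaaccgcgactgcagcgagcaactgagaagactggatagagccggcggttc
Fosb, chr7:19309996-19310295, reverse strand: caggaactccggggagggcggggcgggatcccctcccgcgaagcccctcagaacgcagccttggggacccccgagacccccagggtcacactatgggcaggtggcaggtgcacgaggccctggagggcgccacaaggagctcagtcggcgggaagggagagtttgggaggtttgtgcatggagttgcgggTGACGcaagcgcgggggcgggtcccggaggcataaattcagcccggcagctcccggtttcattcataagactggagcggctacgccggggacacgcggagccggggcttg
Atf3, chr1:191183284-191183583, reverse strand: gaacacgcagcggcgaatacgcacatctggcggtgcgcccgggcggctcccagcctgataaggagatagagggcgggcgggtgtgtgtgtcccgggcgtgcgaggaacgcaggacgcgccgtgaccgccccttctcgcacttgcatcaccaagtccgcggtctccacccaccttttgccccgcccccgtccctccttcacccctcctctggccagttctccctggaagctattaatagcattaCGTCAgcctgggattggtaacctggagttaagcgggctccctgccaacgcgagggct
Jun, chr4:95052173-95052472, reverse strand: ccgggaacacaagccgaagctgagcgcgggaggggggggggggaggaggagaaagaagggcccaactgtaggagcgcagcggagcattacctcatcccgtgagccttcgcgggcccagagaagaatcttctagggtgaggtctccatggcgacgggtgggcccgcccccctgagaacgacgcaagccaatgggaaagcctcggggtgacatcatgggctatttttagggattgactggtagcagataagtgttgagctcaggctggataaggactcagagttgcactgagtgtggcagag
Fosl2, chr5:32136222-32136521, forward strand: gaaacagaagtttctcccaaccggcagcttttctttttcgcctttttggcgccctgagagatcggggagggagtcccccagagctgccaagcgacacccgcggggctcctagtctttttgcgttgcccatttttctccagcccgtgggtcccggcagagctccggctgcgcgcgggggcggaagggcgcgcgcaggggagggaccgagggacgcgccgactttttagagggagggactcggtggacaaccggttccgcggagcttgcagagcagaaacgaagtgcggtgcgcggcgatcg

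In all, 6 motifs were searched on both strands of the 7 windows that the RefSeq table held, all but that of Fosl1. TGACG was found in 4 of the 7, those of Fos, Fosb, Junb and Atf3, and in 31.2% of 11496 promoters of tested genes and 20.8% of all 32851 promoters. Fos held it at -129 and -66 from the start site, Fosb at -60, Junb at -106 and Atf3 at -7 on the opposite strand. The full element TGACGTCA, which contains TGACG, was in none of the 7 windows, in 3.11% of promoters of tested genes and in 1.79% of all promoters. The AP-1 site TGANTCA was in 0 of the 7 windows (4.91% and 7.81%), and so was the CArG box that serum response factor binds (1.28% and 1.63%). The search covered these windows and fixed patterns only, so it cannot show that a gene lacks either element. Elements further upstream and near matches, such as tgacatca in the Jun window, were not counted. TATAAA was found for Fos at -33 and for Junb at 1, in 7.04% of promoters of tested genes and in 13.6% of all promoters. The GC box GGGCGG was in 5 of the 7 windows, in 62.8% of promoters of tested genes and in 35.7% of all promoters. The Jund window belongs to the start in RefSeq, whereas GENCODE M21 begins the gene further downstream, and it held none of the 6 motifs.

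Library totals lay between 16208431 and 20614531 counts in db/db mice and between 15641797 and 19022560 in db/m mice. Levels are given in CPM, counts relative to library size scaled by the TMM factors of edgeR, which ranged from 0.605 to 1.75. The floor of 3 counts per mouse lay between 0.110 and 0.241 CPM and covers counting error only. Although the labels name islet cells, 10 acinar markers took up 44.3% to 47.9% of reads for db/db mice and 34.5% to 44.6% for db/m mice. The study used insulin staining to check that the sequenced islets were free of acinar cells, and reports that most cells stained positive. The summed level of 10 β-cell markers was 2485 to 6463 CPM in db/db mice and 7672 to 25177 CPM in db/m mice, where db/m replicate 1 had the highest value. All of these markers had reads.

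An adjusted p under 0.05 was reached by 6 members of the family, each lower in db/db islets, against 0.486% of all tested genes called lower and 0.133% called higher. For the same 6 genes every db/db mouse lay below every db/m mouse, as for 12.6% of all tested genes, and nothing is read from either count because the genes were chosen for this difference. The summed level of the 8 genes was 70.6, 78.3 and 105.5 CPM for db/db mice against 813, 1247 and 735 CPM for db/m mice. Their median log2 fold change was -3.72 over the 7 tested genes, where that of all tested genes was 0.00 to 2 decimals (-0.00093). In RNA from these mixed preparations, which held acinar transcripts, fewer cells that express a gene and less mRNA per cell cannot be told apart. Without db/db replicate 2 the count of 6 became 3 (Fos, Fosb and Atf3), and without db/db replicate 1 or 3 or db/m replicate 1 or 2 it became 4, with Jun added to these.

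**Figure D1:**
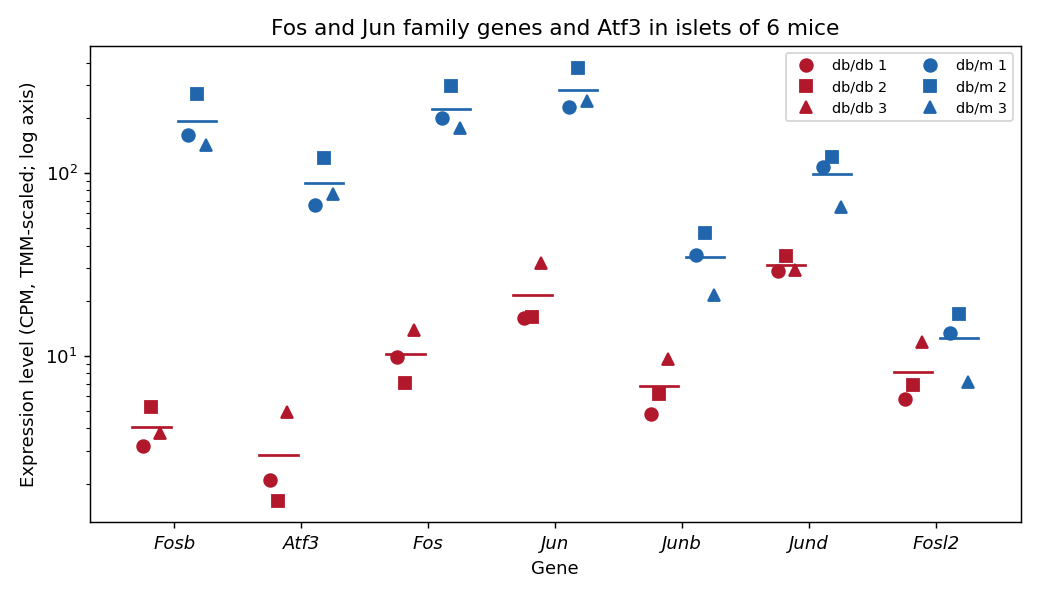
Expression level of 7 genes in each mouse, in TMM-scaled CPM on a log axis, with db/db mice in red, db/m mice in blue, a marker shape per replicate number and a line at each group mean. Levels of the groups are apart for every gene except Fosl2 (mean of 8.16 CPM in db/db and 12.5 CPM in db/m mice), and Fosl1 is not drawn because it had 0 counts in the db/db mice.

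Among the Fos family, Fosb had the largest difference. FosB pairs with Jun proteins, and its truncated splice form accumulates in chronically stimulated neurons. The db/db mice had 40, 88 and 56 counts of Fosb, while the db/m mice had 4398, 4611 and 2620. Every db/m mouse thus stood far above every db/db mouse, with a mean of 191 ± 68.2 CPM (SD, n = 3) against 4.08 ± 1.06 CPM (SD, n = 3). The log2 fold change was -5.54 (standard error 0.39), which is 46.5-fold.

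Fos, the classic marker of recent cell stimulation, had 122, 118 and 205 counts in db/db islets compared with 5451, 5089 and 3262 in db/m islets. In CPM this was 10.2 ± 3.38 (SD, n = 3) against 224 ± 63.5 (SD, n = 3). The spread within each group was small beside the gap between them, and the log2 fold change was -4.46 (standard error 0.37), or 22.0-fold.

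Fosl2, which encodes Fra-2 and is induced later and more weakly than Fos, stood apart from these genes. Its counts were 72, 115 and 176 in db/db mice and 363, 289 and 133 in db/m mice. On the CPM scale the groups overlapped, since db/db replicate 3 (11.8 CPM) lay above db/m replicate 3 (7.20 CPM). The log2 fold change was -0.61 (standard error 0.38), from 8.16 ± 3.23 CPM (SD, n = 3) in db/db to 12.5 ± 4.87 CPM (SD, n = 3) in db/m mice. It lay between -1.19 with library size in place of TMM factors, a setting that moved the median of all genes to -0.59, and -0.21 with acinar markers as a covariate.

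Fosl1, which encodes Fra-1, was close to the limit of detection. The db/m mice had 10, 22 and 1 counts, each of the 3 db/db mice had 0, and the gene did not pass the filter. With 3 counts over the group as the floor, the pooled level in db/m mice (0.525 CPM) was at least 7.71-fold higher than in db/db mice. This limit rests largely on db/m replicate 2 and was 3.53-fold without it (0.241 CPM), and 4.78-fold without db/db replicate 2 and 5.10-fold without db/db replicate 3. Fosl1 shares 52.6% of its 50-base stretches with Ccdc85b, which overlaps it on the other strand, and whose counts were 39, 70 and 51 in db/db and 130, 82 and 59 in db/m mice. The use of strand in counting is not given in the sources used here.

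Within the Jun family, the difference was smaller for Junb and Jund than for Jun. Jun, the main partner of Fos, had 199, 272 and 479 counts in db/db islets compared with 6217, 6449 and 4550 in db/m islets. The means of 21.5 ± 9.29 CPM (SD, n = 3) and 283 ± 80.4 CPM (SD, n = 3) gave a log2 fold change of -3.72 (standard error 0.39), or 13.2-fold. No db/db mouse came near the db/m mice, with a range of 16.0 to 32.2 CPM against 228 to 376 CPM. Jun shares 5.83% of its 50-base stretches with its antisense gene Junos, which had at most 107 counts in a mouse.

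Junb, which restrains the activity of Jun at many promoters, had 60, 103 and 143 counts in db/db mice and 965, 809 and 397 in db/m mice. The means were 6.86 ± 2.48 CPM (SD, n = 3) for db/db against 34.7 ± 12.8 CPM (SD, n = 3) for db/m islets, a log2 fold change of -2.33 (standard error 0.37). The groups stayed apart, with 9.62 CPM in the highest db/db mouse and 21.5 CPM in the lowest db/m mouse. Junb shares 5.76% of its 50-base stretches with Prdx2 on the other strand, which had 227, 386 and 250 counts in db/db mice and 574, 268 and 433 in db/m mice, more than Junb itself in each db/db mouse and in db/m replicate 3.

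Jund, which is present in most resting cells and is less inducible than the others, had 361, 586 and 437 counts in db/db mice and 2931, 2082 and 1194 in db/m mice. This corresponded to 31.1 ± 3.39 CPM (SD, n = 3) and 97.8 ± 29.5 CPM (SD, n = 3), and a log2 fold change of -1.65 (standard error 0.29), or 3.14-fold. The db/db mice were close to each other, from 29.0 to 35.0 CPM, and the lowest db/m mouse had 64.6 CPM. GENCODE M21 places Gm11175 on the other strand of Jund, with 48.3% of the 50-base stretches of Jund shared. The counts of Jund are therefore less certain than those of Fos, Fosb, Fosl2 and Atf3, which share none. Gm11175 is not among the genes with counts, so its level cannot be set beside that of Jund.

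Atf3, a stress-induced bZIP factor that represses or activates its targets depending on its partner, had 26, 27 and 73 counts in db/db islets compared with 1807, 2063 and 1418 in db/m islets. The means were 2.87 ± 1.78 CPM (SD, n = 3) against 87.7 ± 28.5 CPM (SD, n = 3), for a log2 fold change of -4.93 (standard error 0.47), or 30.5-fold. Replicate 3 was the highest db/db mouse for Atf3, as it was for Fos, Fosl2, Jun and Junb, and replicate 2 was the highest db/m mouse in CPM for all 8 genes.

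Levels of different genes were compared per kilobase of RefSeq exon length (CPM per kilobase). In db/m islets Fos was highest with 106 ± 30.1 (SD, n = 3), followed by Jun with 88.9 ± 25.2 (SD, n = 3), Fosb with 49.5 ± 17.7 (SD, n = 3), Atf3 with 44.4 ± 14.4 (SD, n = 3), Jund with 34.0 ± 10.3 (SD, n = 3), Junb with 18.8 ± 6.97 (SD, n = 3), Fosl2 with 2.12 ± 0.831 (SD, n = 3) and Fosl1 with 0.333 ± 0.374 (SD, n = 3). The ranges over mice overlapped between Fos and Jun, between Fosb and Atf3, between Atf3 and Jund, and between Jund and Junb. Those of Jun and Fosb did not meet, nor did those of Junb, Fosl2 and Fosl1. In db/db islets the order was another one. Jund came first with 10.8 ± 1.18 (SD, n = 3), then Jun with 6.74 ± 2.92 (SD, n = 3), Fos with 4.84 ± 1.60 (SD, n = 3), Junb with 3.73 ± 1.35 (SD, n = 3), Atf3 with 1.45 ± 0.901 (SD, n = 3), Fosl2 with 1.39 ± 0.550 (SD, n = 3) and Fosb with 1.06 ± 0.276 (SD, n = 3). Neighbours in this order overlapped over the db/db mice except Junb and Atf3. The order in db/m mice depends on the lengths. With the exon lengths of GENCODE M21, chosen after seeing the data, Jund had 58.6 ± 17.7 (SD, n = 3) and Fosb 30.5 ± 10.9 (SD, n = 3), so that Jund came before Atf3 with 40.7 ± 13.2 (SD, n = 3). In db/db mice the order was the same with these lengths, with Jund at 18.7 ± 2.03 (SD, n = 3).

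The make-up of the pool of transcripts followed from these unequal differences, and it does not depend on the scaling between libraries. Fos family genes made up 25.6%, 21.5% and 25.4% of the summed level per kilobase for db/db mice against 46.3%, 46.5% and 44.8% for db/m mice. Jun family genes made up 70.2%, 75.5% and 68.0% in db/db mice and 42.6%, 40.3% and 41.0% in db/m mice. The db/m mice were close to each other, and the shares of neither family overlapped between the groups. Jund alone took 39.9%, 44.6% and 27.2% in db/db mice but 12.4%, 9.15% and 8.25% in db/m mice. Fos took 18.4%, 12.2% and 17.4% in db/db mice and 31.5%, 30.5% and 30.8% in db/m mice. For Jun the shares of the groups overlapped, with 21.8% ± 4.45 (SD, n = 3) in db/db and 25.9% ± 2.33 (SD, n = 3) in db/m mice. With GENCODE exon lengths, the mean share of the Fos family was 16.3% in db/db and 38.4% in db/m mice. Single genes depend on the lengths more: without division by length Jun had a larger share than Fos in each db/m mouse, 30.6% ± 2.75 (SD, n = 3) against 24.1% ± 0.437 (SD, n = 3).

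**Figure D2:**
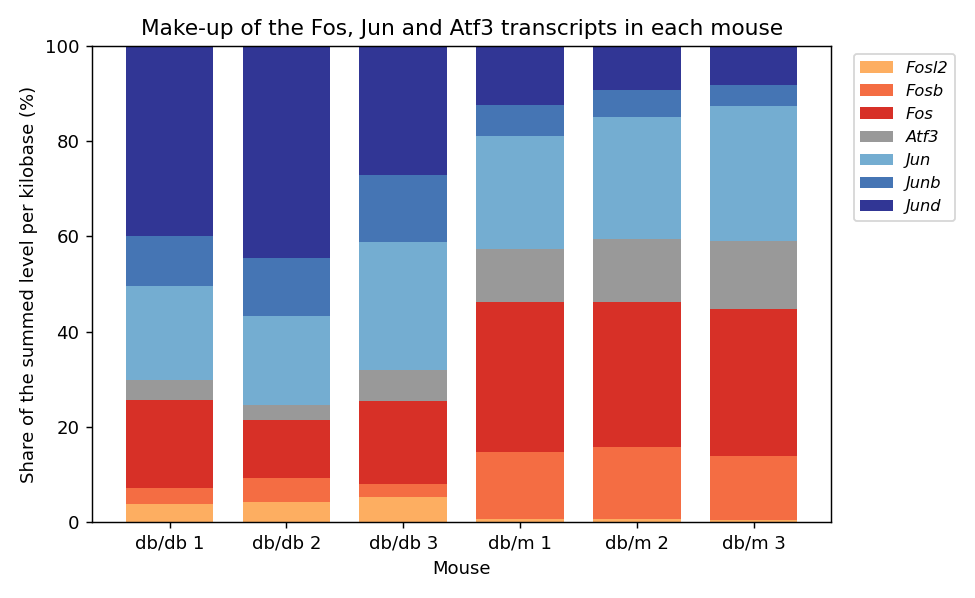
Share of each gene in the summed level per kilobase, in percent, for each of the 6 mice. Jund (dark blue, top) is the largest part in each db/db mouse, 27.2% to 44.6%, and Fos (red) the largest in each db/m mouse, 30.5% to 31.5%, with RefSeq lengths. In db/db replicate 3 Jun is close to Jund, with 26.9%, and passes it without division by length, with 30.5% against 27.9%. With GENCODE lengths Jun passes Fos in db/m replicate 3, with 29.8% against 28.9%. Fosl1, at most 0.163%, is not drawn.

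Ratios of counts within a library gave the same picture. For each count of Jund there were 0.338, 0.201 and 0.469 counts of Fos for db/db mice against 1.86, 2.44 and 2.73 for db/m mice. For each count of Fosl2 there were 0.556, 0.765 and 0.318 counts of Fosb in db/db mice and 12.1, 16.0 and 19.7 in db/m mice. Fos and Jun kept closer to each other, with 0.613, 0.434 and 0.428 counts of Fos for each count of Jun in db/db mice and 0.877, 0.789 and 0.717 in db/m mice. In none of these ratios did the groups overlap.

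Across the 6 mice, log2(CPM + 1) of Jun and Atf3 had a Pearson r of 0.999, and Fos had 0.997 with Atf3 and 0.995 with Jun. Correlations of Fosl2 with the other tested genes lay between 0.581 and 0.792. These values describe 6 mice in 2 groups and include the gap between the groups. Outside the 8 genes, Dpf2, Nabp1, Synrg, Trove2 and Gm16486 were most like Fos in this measure, with r from 0.991 to 0.999 among 7343 genes that averaged at least 5 CPM. The shape was shared but not the size of the difference, since the log2 fold change was -0.28 (standard error 0.20) for Dpf2 and -6.19 (standard error 0.41) for Gm16486. Most like Jund were Atp7a, Rfx3, Tmem65, Dgke and Crybg3, with r from 0.992 to 0.998.

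Further immediate-early genes outside the AP-1 family were lower as well. Of 17 tested genes, 5 fell in db/db islets with an adjusted p under 0.05 and 0 rose, and 12 were lower and 0 higher at an unadjusted p under 0.05, against 9.89% and 5.04% of all tested genes. The median log2 fold change of the list was -2.10. Egr1, a zinc finger factor induced through the same kinases as Fos, fell from 150.3 ± 40.8 CPM (SD, n = 3) in db/m to 10.1 ± 3.78 CPM (SD, n = 3) in db/db islets, and its log2 fold change was -3.89 (standard error 0.37; edgeR adjusted p = 0.00416). The other 4 were Dusp1, a phosphatase that switches off MAP kinases (-2.97), Klf4 (-2.75), Ier2 (-2.09) and Klf6 (-2.50), with adjusted p from 0.0157 to 0.0414 from edgeR. The count of 5 became 1 without db/db replicate 1 or 3, 0 without db/db replicate 2, 3 without db/m replicate 2 and 8 without db/m replicate 3. The list overlaps in part with genes known to be lower in these samples before it was written.

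Of the other bZIP genes, which include possible dimer partners, 32 of 40 were tested and 1 fell, Mafa, which is itself a β-cell marker that drives insulin transcription. Mafa had 0.424 ± 0.621 CPM (SD, n = 3) in db/db and 24.0 ± 23.4 CPM (SD, n = 3) in db/m islets (log2 fold change -5.70, standard error 1.01, adjusted p = 0.0489 from edgeR). Without db/m replicate 3 the count was 1, and without each of the other 5 mice it was 0. At an unadjusted p under 0.05 there were 7 lower and 3 higher genes (31.25% of the tested list, where 9.89% of all tested genes were lower and 5.04% higher). The smallest p-values after Mafa belonged to Ddit3, which encodes the stress factor CHOP, with -1.08 on the log2 scale (standard error 0.28, adjusted p = 0.114 from edgeR), and to Creb3 with 0.84 (standard error 0.22, adjusted p = 0.119 from edgeR). The median of the list was -0.15. Batf, Batf3 and Jdp2, relatives of the Fos family and Atf3 that also pair with Jun proteins, had at most 16 counts in any mouse and were not tested.

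Of 34 tested kinases that relay signals to AP-1, 0 had an adjusted p under 0.05 by edgeR, against 2 by DESeq2, and 4 were lower and 0 higher at an unadjusted p under 0.05 (11.8% of the list, where 9.89% of all tested genes were lower and 5.04% higher). The median log2 fold change was 0.05. The 3 smallest p-values belonged to Mapk10, a JNK gene of neurons and endocrine cells, with -1.63 (standard error 0.44, adjusted p = 0.125 from edgeR), Prkacb, a catalytic subunit of protein kinase A, with -0.95 (adjusted p = 0.164 from edgeR), and Rps6ka2, a kinase downstream of ERK, with -1.34 (adjusted p = 0.214 from edgeR).

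The 16 tested factors that bind Fos and Jun promoters, with their cofactors, had 0 genes with an adjusted p under 0.05 by edgeR and 1 by DESeq2. At an unadjusted p under 0.05, 2 were lower and 0 higher (12.5% of the list, where 9.89% of all tested genes were lower and 5.04% higher). The 2 were Srf, which binds the serum response element of Fos, with 12.2 ± 1.58 CPM (SD, n = 3) in db/db and 32.3 ± 17.0 CPM (SD, n = 3) in db/m islets (log2 fold change -1.41, standard error 0.36, edgeR adjusted p = 0.113), and its partner Elk1 (-1.31, standard error 0.41, adjusted p = 0.183 from edgeR). Next came Med23, a Mediator subunit that Elk1 contacts, with -0.43 (adjusted p = 0.447 from edgeR).

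Proteins that bind AU-rich elements such as ATTTA govern the decay of Fos mRNA. Of 8 tested genes 0 had an adjusted p under 0.05 by edgeR and 1 by DESeq2. At an unadjusted p under 0.05, 1 was lower and 0 higher (12.5% of the list, where 9.89% of all tested genes were lower and 5.04% higher). This gene was Zfp36, which encodes tristetraprolin and is an immediate-early gene itself, at -1.53 on the log2 scale (standard error 0.37, adjusted p = 0.104 from edgeR). Zfp36l2 and Zfp36l1 had values of 0.37 and -0.54 (adjusted p = 0.483 and 0.552 from edgeR).

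Textbook AP-1 target genes did not share one direction. Of 22 genes, 10 were tested, and 0 had an adjusted p under 0.05 by edgeR and 3 by DESeq2. At an unadjusted p under 0.05, 2 were lower and 3 higher (50% of the tested list, where 9.89% of all tested genes were lower and 5.04% higher). The median log2 fold change was 0.64, but its sign was not stable, at -0.41 over 21 genes with DESeq2 and -0.08 without db/db replicate 2. Hbegf, a growth factor of the EGF family, had -1.97 (standard error 0.43, adjusted p = 0.0819 from edgeR) and Vegfa -0.94 (standard error 0.28, adjusted p = 0.157 from edgeR). Cd44, a cell surface receptor for hyaluronan, had 1.58 (standard error 0.50, adjusted p = 0.185 from edgeR). Among genes that did not pass the filter were Mmp3, Mmp9, Mmp13, Plau, Timp1 and Il6, and Mmp10 had 0 counts in each of the 6 mice. Without db/m replicate 3, 1 of 14 tested genes had an adjusted p under 0.05.

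**Figure D3:**
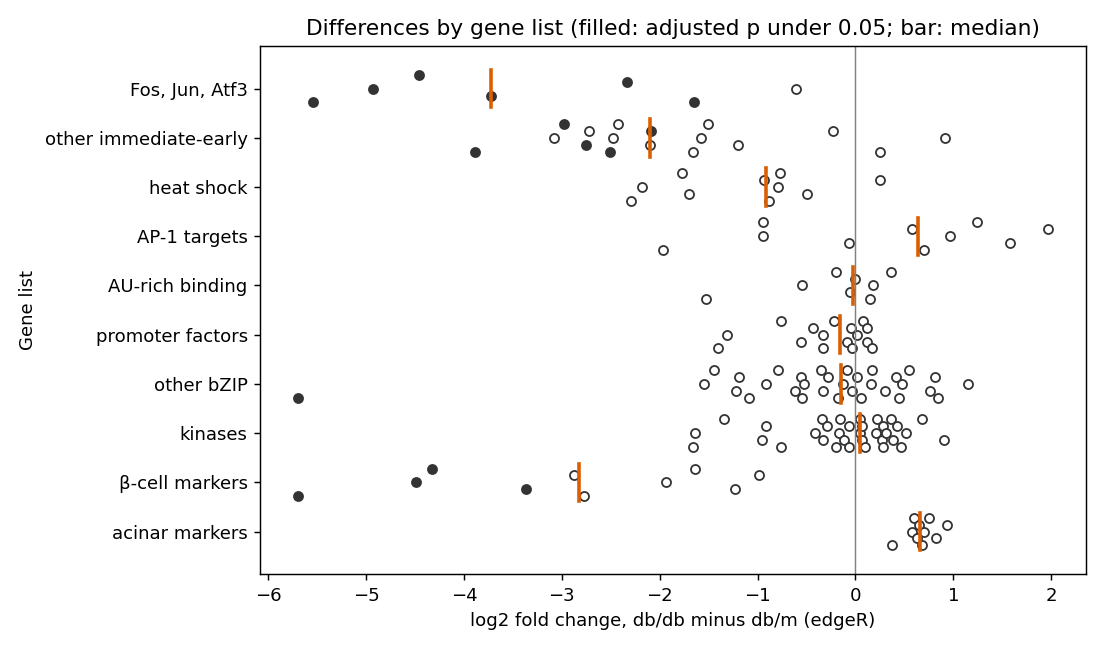
Log2 fold change (db/db minus db/m, edgeR) of each tested gene, by gene list, with filled points for an adjusted p under 0.05 and an orange bar at the median. The AP-1 genes and Atf3 (median -3.72) lie to the left of 0. So do 10 of 10 β-cell markers (-2.83), 15 of 17 other immediate-early genes (-2.10) and 9 of 10 heat shock genes (-0.91). Kinases (0.05), promoter-binding factors (-0.15), other bZIP genes (-0.15) and AU-rich binding proteins (-0.03) are centred near 0. The medians of AP-1 targets (0.64) and acinar markers (0.66) lie to the right.

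Lists for tissue stress and for the cell types of the pancreas were read in the same libraries. Heat shock genes, which respond to stress and handling of tissue, had 0 of 10 genes with an adjusted p under 0.05 by edgeR, 3 by DESeq2 and 1 by edgeR without db/m replicate 3. At an unadjusted p under 0.05, 6 were lower and 0 higher (60% of the list, where 9.89% of all tested genes were lower and 5.04% higher). Hspa1a, the inducible HSP70, was at -2.29 on the log2 scale (standard error 0.50, adjusted p = 0.0819 from edgeR), and Hsph1 and Dnajb1 had -1.77 and -2.18 (adjusted p = 0.0977 and 0.120 from edgeR). The median of the list was -0.91. For 5 of the 10 genes every db/db mouse lay below every db/m mouse, as for 12.6% of all tested genes. The summed level of the list was 284 to 1307 CPM in db/db and 1207 to 1772 CPM in db/m mice. The groups overlapped in this sum through db/db replicate 1 alone. Of 10 β-cell markers, 4 fell in db/db islets with an adjusted p under 0.05 by edgeR, against 0.486% of all tested genes. The other 6 were lower without passing the threshold, and the median was -2.83. At an unadjusted p under 0.05, 8 were lower and 0 higher (80% of the list, where 9.89% of all tested genes were lower and 5.04% higher). For 7 of the 10 markers every db/db mouse lay below every db/m mouse, as for 12.6% of all tested genes. The count of 4 was 8 with DESeq2 or with every gene of at least 1 count, 2 without genes that took at least 1% of a library, 0 with library size alone, 0 without db/db replicate 1, 2 or 3, 2 without db/m replicate 1 and 1 without db/m replicate 2. The 10 acinar markers had a median of 0.66 and 0 had an adjusted p under 0.05 by edgeR or DESeq2, or an unadjusted p under 0.05 by edgeR. Of the other lists, 4 of 6 other endocrine markers, 6 of 6 duct, 6 of 6 endothelial, 6 of 7 stromal and 6 of 7 leukocyte markers were tested, and none of these lists had a gene with an adjusted p under 0.05 by edgeR. At an unadjusted p under 0.05 there were 1 lower and 1 higher gene among duct and also among leukocyte markers, 1 lower endothelial gene and 1 higher stromal gene, and DESeq2 called 1 stromal gene. In edgeR, 3 stromal genes were called higher without db/m replicate 1, and 3 with acinar markers as a covariate. Summed stromal markers were 36.8 to 68.2 CPM in db/db and 4.72 to 49.3 CPM in db/m mice, and summed leukocyte markers 15.2 to 66.6 CPM and 4.17 to 44.6 CPM. No marker of these lists was at 0 in all 6 mice.

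The order of the mice within a group was not the same for the AP-1 genes and the β-cell markers. Nor was it the same for the other immediate-early genes, in either group. Their sums for replicates 1 to 3 were 150, 128 and 252 CPM in db/db and 586, 1132 and 688 CPM in db/m mice. For heat shock genes it was the same in db/m mice (replicates 1 to 3: 1226, 1772 and 1207 CPM) but not in db/db mice. For stromal markers it was the same in db/db mice (36.8, 48.5 and 68.2 CPM) but not in db/m mice. This held for endothelial markers too (13.6, 24.5 and 25.8 CPM in db/db mice). Db/m replicate 1 had a summed β-cell level of 25177 CPM, against 7672 and 7948 CPM in the other two db/m mice, while its summed AP-1 level of 813 CPM lay between theirs. Db/m replicate 1 also had 49.3 CPM of stromal markers, within the range of the db/db mice. With acinar markers as a covariate, the median log2 fold change of the 7 tested genes was -3.74. In that fit 4 of them (Fos, Fosb, Jun and Atf3) had an adjusted p under 0.05, and Junb and Jund were at -2.01 and -1.36. Without db/m replicate 1 the median was -3.84. The part of heat shock, β-cell and other markers in the difference was not tested, and nothing is read from orders of so few mice.

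**Figure D4:**
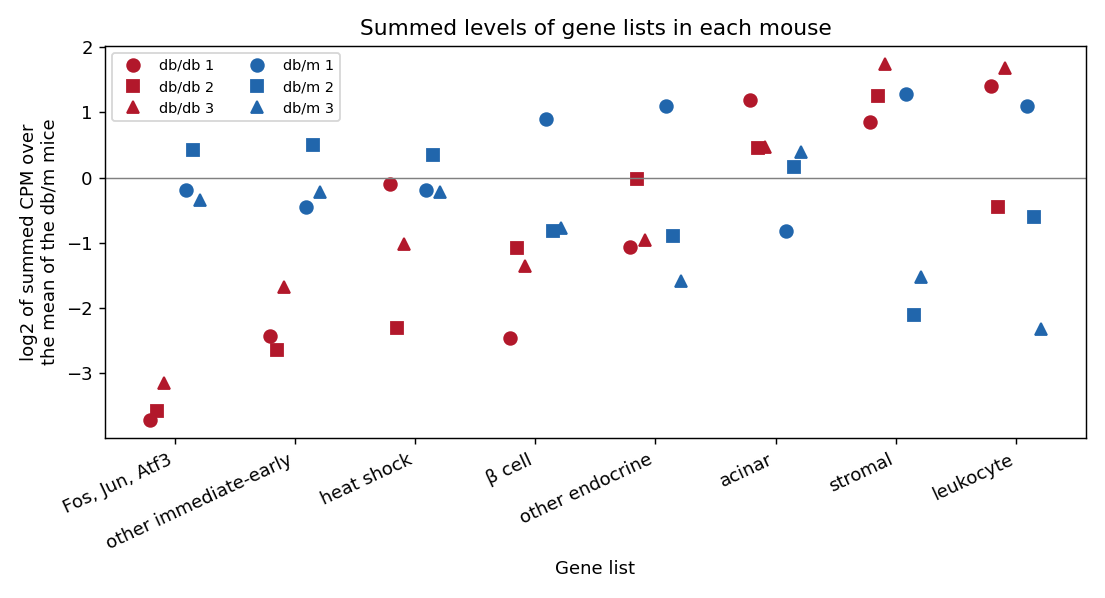
Summed CPM of each gene list in each mouse, as the log2 ratio to the mean of the 3 db/m mice, with db/db mice in red, db/m mice in blue and a marker shape per replicate number. The 8 AP-1 genes lie between -3.72 and -3.14 in db/db mice. The groups are also apart for other immediate-early genes (-2.65 to -1.67 in db/db mice) and β-cell markers (-2.45 to -1.07), both lower in db/db mice. Acinar markers are higher, from 0.45 in db/db mice against at most 0.39 in db/m mice. Heat shock genes, other endocrine, stromal and leukocyte markers overlap between the groups. Heat shock genes overlap through db/db replicate 1 alone.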

How the data were processed

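The authors sequenced rRNA-depleted total RNA on an Illumina HiSeq, removed adaptors, N bases and low-quality reads, and mapped the rest to mm10. The methods of the study name TopHat as the aligner, whereas the submitters' processing notes list HISAT2 (2.0.4). The deposited table holds raw counts of reads per gene symbol for 6 mice, without normalization. The program that counted the reads, the annotation and the strand setting are not given in the sources used here.

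Differences were fitted by edgeR 4.0.16 (R 4.3.3) with its quasi-likelihood test after filterByExpr and TMM scaling. Adjusted p-values (Benjamini-Hochberg) cover 12760 genes, and 0.05 was the threshold. The standard error of a log2 fold change was its size over the root of F. The db/m mice were littermates of the db/db mice, but nothing states which mice shared a litter, a cage or a batch. The main fit did not pair mice, and its p-values measure the spread between these mice. Alternatives were DESeq2 1.42.0, library size alone, 2 other filters, leaving out dominant genes, a block by replicate number, a covariate for acinar markers, and leaving out each mouse. The fits were tested on simulated data. No pair of mice within a group agreed within sampling noise (chi-square over its degrees of freedom 26.5 to 147).

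The 8 genes and all lists were chosen with earlier results of these data known. Named are the 8 genes, and of each other list the genes with an adjusted p under 0.05 (at most 6), filled up to 3 by smallest p. The 5 genes most like Fos, and likewise Jund, were named as well. Batf, Batf3, Jdp2 and the untested target genes were named after their values were seen. Gene models and sequences were taken from RefSeq and GENCODE M21 on GRCm38 (the mm10 build) with Python 3.11.15, and figures were drawn with matplotlib 3.10.9. Proteins were not analysed here.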

Additional observations from a re-analysis of the deposited data

How the results depend on the processing

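The 8 genes were chosen on this difference, so its persistence in the alternatives is no support for it. The count of 6 genes ranged from 3 to 6 when 1 mouse was left out. It was 4 with library size alone or with acinar markers as a covariate, 5 without dominant genes and 7 with every gene of at least 1 count. The median log2 fold change became -4.23 with library size alone, which put the median over all genes at -0.59, and lay between -4.13 and -3.43 with 1 mouse left out. Mice with the same replicate number did not vary together over all genes (correlations of deviations from -0.53 to -0.20). The db/m mice were littermates of the db/db mice, but nothing states which mice shared a litter or a processing step. These correlations cannot exclude that mice with the same replicate number did. With the replicate number as a block, 4 of the 8 genes (Fos, Fosb, Jun and Atf3), 16 genes in all, 1 other immediate-early gene, 0 other bZIP genes and 0 β-cell markers had an adjusted p under 0.05.

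Over all genes the count of 79 (62 lower, 17 higher) became 21 with library size alone, 679 with DESeq2 and 888 with every gene of at least 1 count, and ranged from 10 to 333 with 1 mouse left out. DESeq2 called 3 other bZIP genes, 2 kinases, 1 promoter-binding factor, 1 AU-rich binding protein, 3 AP-1 targets, 10 other immediate-early genes and 3 heat shock genes. With every gene of at least 1 count these were 3, 3, 1, 1, 4, 12 and 4, Fosl1 was called too, and of the markers 1 duct, 1 endothelial and 1 leukocyte gene were called lower and 1 duct, 1 stromal and 1 leukocyte gene higher. Other bZIP genes numbered 0 with library size alone and without dominant genes (at least 1% of a library), and AP-1 targets 1 with the acinar score. With 1 mouse left out the counts were 0 to 1 for other bZIP genes, 0 to 8 for other immediate-early genes, 0 to 1 for AP-1 targets and 0 to 1 for heat shock genes. Without division by length the mean shares in db/m mice were 44.8% for the Jun family and 9.41% for Atf3. With GENCODE lengths the Fos family had 16.3% in db/db and 38.4% in db/m mice, and the Jun family 80.1% and 49.3%. The causes of these changes were not tested. Depth limits Fosl1, whose 0 counts allow up to 0.0681 CPM over the db/db group (3 counts).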
